A study of Mus musculus with 6 samples.

Results

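Long-span exonic circular RNAs (circRNAs) are closed RNA loops whose 2 ends lie in exons at least 10000 bases apart on the genome. They were taken here as the exonic entries of the circRNA table, off the mitochondrial chromosome, with an annotated host gene whose entry occurs in 1 or 2 rows on the same strand. The rule gave 507 of the 1488 circRNAs, and it left aside host entries that occur in more rows. The 507 circles came from 424 host genes, and 501 of them lay in protein-coding genes. Because the rule reads the host entry as written, and 96 circles have more than 1 gene in that entry, 10 genes gave 3 or 4 circles each (33 circles in all). Counting exonic circles of any span, 43 of the 507 lay in genes with over 2. Among these genes were Ankib1 (3 exonic circles) and Satb1 (4). Short-span exonic circRNAs chosen in the same way but with under 10000 bases between their ends (445 circles) served for comparison.

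The libraries came from wild-type C57BL/6J mice whose right eye was sutured shut for 3 days and whose visual cortex was taken at postnatal day 28. From each of 3 mice, the primary visual cortex (V1) on the side opposite to the sutured eye (contralateral, left) and that on the same side (ipsilateral, right) were sequenced as total RNA, which gave 3 contralateral and 3 ipsilateral libraries. Both groups had lived through the deprivation, and no mouse with both eyes open was analysed here. The circRNA counts are numbers of reads across a back-splice junction, and gene counts of the same libraries gave the level of each host. As counts of total RNA, these may include reads from the circles themselves and do not measure linear messages alone.

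Back-splicing joins the donor site at the end of a downstream exon to the acceptor site at the start of an upstream exon, which closes the exons between them into a loop without cap or poly(A) tail. It competes with linear splicing of the same precursor, and long introns beside the circle, paired repeats within them and RNA-binding proteins such as Quaking are known to favour it. Brain is rich in circRNAs, many of which come from genes of synapses and signalling, and since they resist exonucleases they can build up in cells that do not divide.

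The identity of a circle is its junction. Junctions are shown for circles that recur in the results, as the last 20 bases of the last exon in lower case followed by the first 20 bases of the first exon in capitals, so that the change of case marks the back-splice point. They were read from GENCODE M21 transcripts (GRCm38) at the deposited ends and not from reads, and all 9 lie wholly in coding sequence. The first 4 are among the 12 most abundant circles, and both circles of Dtnb and both of Sergef show how 2 circles can share an acceptor, seen as the same capitals after different lower-case ends. The last, from Dpp10, belongs to the circle of the widest span.
Rnf169 exons 2 to 4 (chr7:99935162-99955540, minus strand): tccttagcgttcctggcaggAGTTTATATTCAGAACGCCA
Unc79 exons 2 to 7 (chr12:102991350-103021876, plus strand): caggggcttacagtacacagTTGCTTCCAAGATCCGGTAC
Gigyf2 exons 4 to 8 (chr1:87364104-87380008, plus strand): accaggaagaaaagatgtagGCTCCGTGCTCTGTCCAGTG
Hdgfl3 exons 2 to 5 (chr7:81893799-81905636, minus strand): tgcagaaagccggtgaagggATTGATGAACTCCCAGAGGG
Dtnb exons 5 to 8 (chr12:3617606-3648389, plus strand): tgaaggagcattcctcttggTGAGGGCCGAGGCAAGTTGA
Dtnb exons 5 to 9 (chr12:3617606-3686862, plus strand): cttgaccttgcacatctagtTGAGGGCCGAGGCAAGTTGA
Sergef exons 2 to 9 (chr7:46590607-46635556, minus strand): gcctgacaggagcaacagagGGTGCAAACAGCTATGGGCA
Sergef exons 2 to 8 (chr7:46614618-46635556, minus strand): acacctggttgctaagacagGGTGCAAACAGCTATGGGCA
Dpp10 exons 2 to 5 (chr1:123650288-123905176, minus strand): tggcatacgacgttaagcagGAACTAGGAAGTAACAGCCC

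The circles spanned a median of 23521 bases, from 10113 to 254888, against a median of 4283 in the short-span class. Of the 507 circles, 297 spanned at least 20000 bases, 78 at least 50000 and 20 at least 100000. The 3 just inside the threshold came from Prkacb (10113 bases), Lin54 (10166) and Ptbp3 (10202), with mean levels of 210.1, 1065 and 419.7 back-splice reads per 1000000 (CPM, counts scaled by TMM). The 3 just outside came from Cfap54 (9889 bases), Rnf149 (9854) and Cdk13 (9853), at 115.4, 186 and 275.3 CPM. Both ends lay exactly at annotated exon bounds in 489 circles, and for 479 a single transcript held both ends, which allowed their exons to be counted.

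A wide span was mostly intron. In the 479 circles with a transcript, introns made up a median of 96.9% of the span, and the longest inner intron alone, with a median of 11513 bases, made up 50.3%. The spliced circle was small. Its median exonic length was 633 bases in 5 exons, against 488 bases in 3 exons for the short-span class. Exonic circRNAs of genes with over 2 rows were much like the long-span ones. Their medians were 614 bases, 5 exons and 97.0% of the span in introns. Circles of 2 exons numbered 28, circles of over 10 exons 41, and none had a single exon, whereas 72 of 389 short-span circles did. The rule of at least 10000 bases itself favours circles with several exons and much intron, so these contrasts follow largely from it.

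**Figure D1:**
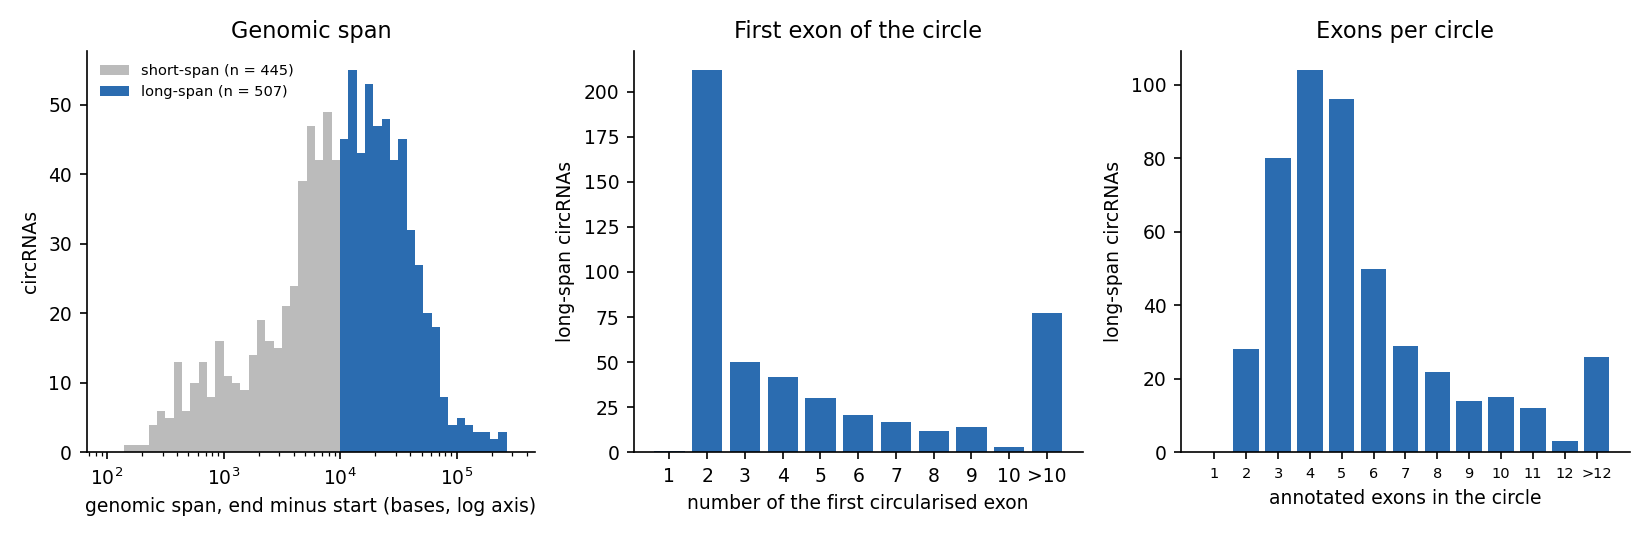
Structure of the long-span circRNAs: genomic span of the long-span (blue) and short-span (grey) circles on a log axis, the number of the first circularised exon, and the number of annotated exons per circle. Exon 2 is the most frequent first exon (212 of 479), and most circles hold 3 to 6 exons.

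Exon 2 was the most frequent first exon. Circles began there in 212 of 479 cases (44.3%), against 40.1% of the short-span circles. Exon 1, which has no acceptor site, was the first exon in 1 circle (Celf2, in the transcript chosen, named after this was seen), and in none was the last exon of the transcript the last of the circle. The introns beside the circle were long, with medians of 16378.5 bases upstream and 16199 downstream. In the short-span class they were 13725 and 10031 bases. Both flanking introns exceeded 5000 bases in 80.1% of the long-span circles and in 63.0% of the short-span ones. In exonic circRNAs of genes with over 2 rows, the share was 79.2%.

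Most circles were made of coding sequence. Of 478 in coding transcripts, 365 held only coding bases, 105 (22.0%) held the annotated start codon and 10 the stop codon. The length of those 365 was a multiple of 3 in 140 (38.4%), against 32.3% of the short-span circles. GC content had a median of 46.3% against 47.7%. The last exon ended in AG, the usual exonic end before a donor site, in 56.4% of the long-span and 54.5% of the short-span circles. The first exon began with G in 38.8% and 46.0%. These features are descriptions, and none was tested.

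The widest circles showed how a single intron can set the span. The widest, from Dpp10, a subunit of A-type potassium channels, spanned 254888 bases with 4 exons of 381 bases in total, and 1 inner intron took up 167850 bases of the span. In mouse order it had 5, 12 and 9 contralateral and 4, 10 and 13 ipsilateral reads. That of Nrxn3, a presynaptic adhesion molecule, likewise covered 228471 bases with 4 exons and a longest intron of 192391 bases, at 1 to 10 reads per library. Lrba, which acts in vesicle traffic, was of the other kind, with 36 exons and 5787 exonic bases over 251284 bases. Its 6 libraries held 1 to 4 reads each.

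Long-span circles accounted for about the same share of back-splice reads in every library. Together they held 26207 reads. Their share was 24.2%, 24.4% and 23.5% on the contralateral side, listed by mouse 1 to 3 here and below, and 24.5%, 23.9% and 23.9% on the ipsilateral side, with 95% Wilson intervals from 22.9% to 25.2% over the 6 libraries that cover counting error only. The groups overlapped, with means of 24.0% ± 0.487 and 24.1% ± 0.327 (SD, n = 3 each). The exact two-sided permutation test of 3 against 3 gave p = 0.9, where the smallest possible is 0.1. Relative to all gene reads, long-span circles gave 160.8, 236.9 and 207.9 reads per 1000000 contralaterally and 165.4, 199.4 and 184.3 ipsilaterally, and the same exact test gave p = 0.5.

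Depth ran from 17849253 to 32213500 reads on genes and from 13428 to 26867 across back-splice junctions. Markers fixed for cortical excitatory neurons were all detected, with summed levels of 3814 to 4862 CPM of gene reads. Interneuron markers (6 of 6 detected) summed to 291.7 to 334.5 CPM in the contralateral and 395.5 to 473.1 in the ipsilateral libraries, and did not overlap. The hippocampal marker Dsp and the choroid plexus marker Ttr stood at 0 in at least 1 library. Other markers of neighbouring tissue were present, and the 3 hippocampal markers together summed to 57.8 to 79.7 CPM. Sums were 19.7 to 28.4 CPM for thalamus, 38.8 to 52.7 for striatum and 152.9 to 211.7 for blood. Mitochondrial ribosomal RNA (mt-Rnr1) split the libraries into 3 with 15.02 to 34.6 CPM (contralateral 1, ipsilateral 1 and 3) and 3 with 2346 to 5759 CPM (contralateral 2 and 3, ipsilateral 2). The part of interneuron content and of mt-Rnr1 in the differences below was not tested, except where values within each mt-Rnr1 set are given. In bulk tissue, fewer cells of a type and less RNA per cell cannot be told apart.

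Reads were concentrated in few circles. A circle had a median of 5.33 reads per library, 34 had a mean of at least 20 and 232 a mean under 5. The 12 most abundant held 17.9% of the reads and the 100 most abundant 53.4%. The median level of 297.1 CPM was close to the 322.5 CPM of short-span circles and below the 368.4 CPM of exonic circles of genes with more rows. These medians were not tested against each other.

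The most abundant long-span circle came from Ankib1, a ubiquitin ligase of the ring-between-ring type, and covered exons 2 to 5. It stood at 4808, 4722 and 5634 CPM contralaterally and at 5464, 5345 and 4949.7 ipsilaterally. Those 6 values overlap and lie within a narrow range. Dtnb, the dystrobrevin beta of the dystrophin-associated complex, followed with 6774, 4377 and 4756 CPM contralaterally and 7237, 4653 and 2391 ipsilaterally. Ipsilateral library 3 was the lowest, and within mouse 1 both sides were high.

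Rnf169, a ubiquitin ligase of DNA break signalling, gave 5463, 5471 and 5686 CPM contralaterally and 4825, 3999 and 3559 ipsilaterally. All 3 contralateral libraries lay above all ipsilateral ones. The log2 fold change, contralateral against ipsilateral here and throughout, was 0.43 ± 0.24 (SE, n = 3 a group), with an adjusted p of 0.999 in edgeR's quasi-likelihood test. Unc79, a subunit of the NALCN sodium leak channel complex, was opposite, at 3861, 4665 and 3929 against 5109, 4845 and 4949.7 CPM. Its fold change was -0.26 ± 0.25 on the log2 scale, also with an adjusted p of 0.999 in edgeR.

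Gigyf2, which represses translation of bound messages, ranged from 3504 to 5874 CPM, and Hdgfl3, of the hepatoma-derived growth factor family, from 1457 to 4497. The lowest Hdgfl3 value stood apart from the other 5 and belonged to contralateral library 1. Nsd2, a histone methyltransferase, had 2549, 2304 and 2171 CPM contralaterally and 2767, 3422 and 3059 ipsilaterally, again without overlap. Its log2 fold change of -0.40 ± 0.30 (SE) was the lowest of the 12, and Rnf169 had the highest. That of Nsd2 was -0.15 within the low mt-Rnr1 libraries and -0.27 with the deposited normalized values. Ppp1cb (a catalytic subunit of protein phosphatase 1), Satb1 (a chromatin organiser), Phf21a (a reader of unmethylated histone tails), Lrch3 (a leucine-rich repeat protein) and Ncoa2 (a nuclear receptor coactivator) had means of 2484 to 2766 CPM and overlapping groups.

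**Figure D2:**
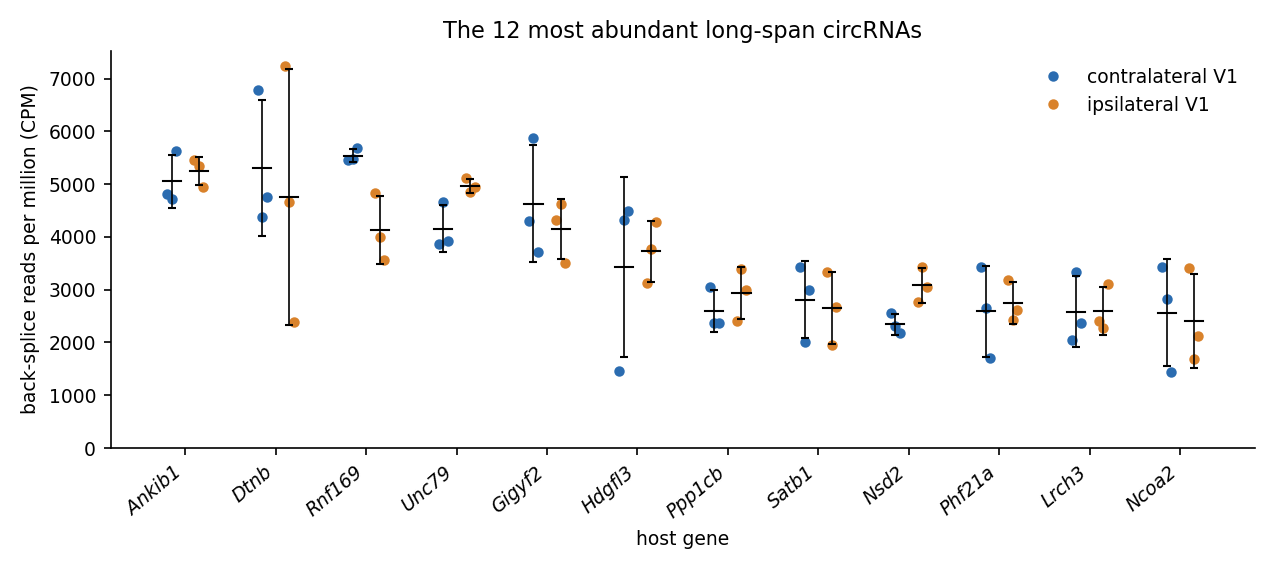
CPM of the 12 most abundant long-span circRNAs in each contralateral (blue) and ipsilateral (orange) library, with mean and SD over 3 libraries in black. Rnf169 is higher and Unc79 and Nsd2 lower in every contralateral library than in every ipsilateral one, and none of the 12 passes the test.

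The level of a circle was hardly related to its span. Across the 507 circles the Spearman correlation between span and mean CPM was -0.06, and the median level was 293.9, 318.1, 304.9 and 254.1 CPM from the narrowest to the widest quartile. With the downstream flanking intron the correlation was 0.10 and with the upstream one 0.07. Circles that begin at exon 2 had a median of 337.9 CPM, against 283.3 for exon 3 and 280.0 for later exons. They gave 9 of the 12 and 19 of the 30 most abundant circles. All these points share the same 6 libraries and circles of a gene share a host, so no test was made.

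Neither did the level follow that of the host. Host levels ran from 0.781 to 507.8 RPKM (gene reads scaled to the length of the gene and the size of the library), and the Spearman correlation with the level of the circle was 0.00 over 503 circles. Back-splice reads were divided by the host reads per kilobase, which is called the circular index below. It sets reads across a single junction against reads over a kilobase, so an index of 1 does not mark equal amounts. Its median was 0.0217, against 0.0239 for short-span circles, and 114 circles lay under 0.01. The index and the host level share the host count, and their Spearman correlation was -0.76.

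The 6 highest mean indices belonged to Pms1 (0.731 ± 0.25, SD over 6 libraries), a mismatch repair factor, Dtnb (0.605 ± 0.142), Elf2 (0.429 ± 0.103), an ETS transcription factor, Acer3 (0.427 ± 0.131), an alkaline ceramidase, Pde5a (0.418 ± 0.119), a cyclic GMP phosphodiesterase, and Gigyf2 (0.416 ± 0.0953). Their hosts were low, between 1.42 and 8.44 RPKM. Among the 495 circles with a tested host, Pms1 alone exceeded an index of 1 in a library, with 1.159 in ipsilateral library 2. None of the 495 had a mean index over 1. The 6 lowest came from Gpm6a, a neuronal membrane glycoprotein (0.000299 ± 0.00019), Rab6a and Gnb1, which act in Golgi traffic and G protein signalling (0.000689 and 0.000953), Mef2c, a transcription factor (0.00132), App, the amyloid precursor (0.00136), and Syn2, a synaptic vesicle protein (0.0018). Their hosts stood at 48.9 to 507.8 RPKM.

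**Figure D3:**
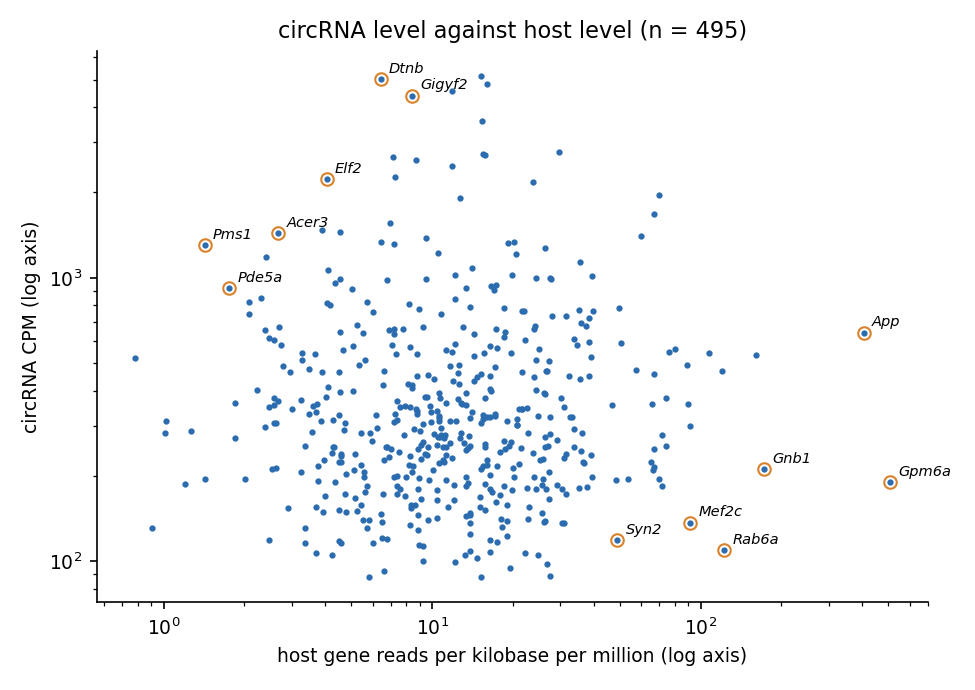
Mean CPM of each long-span circRNA against the mean RPKM of its host over 6 libraries, both on log axes, for the 495 circles of the circular-to-host test. The 6 highest and 6 lowest circular indices are circled in orange, and the cloud shows no slope (Spearman correlation 0.00 over 503 circles).

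The difference in index between classes was small but had the same sign in each library. On the log2 scale the median long-span index lay below the median short-span one in every library: the differences were -0.11, -0.04 and -0.19 contralaterally and -0.12, -0.19 and -0.19 ipsilaterally. Both classes thus kept their order in 6 of 6 libraries. Between hemispheres that difference did not pass (means -0.11 ± 0.08 and -0.17 ± 0.04, SD, n = 3, exact permutation p = 0.2, smallest possible 0.1). Within mice 1 to 3 it was higher contralaterally by 0.02, 0.16 and 0.003, and the exact sign-flip test over 3 mice gave p = 0.25, the smallest it can give.

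No long-span circle passed the comparison of the hemispheres. In edgeR's quasi-likelihood test over all circRNAs (Benjamini-Hochberg, threshold 0.05) 0 of 499 tested circles were called, beside 0 of 1468 over all circRNAs (0%), and the smallest adjusted p was 0.999. At an unadjusted p under 0.05 there were 19 (13 lower and 6 higher contralaterally), which is 3.81% against 3.54% of all circRNAs (1.91% lower and 1.63% higher). Scaled to gene reads the split turned round, with 6 lower and 9 higher, beside 45 of all 1468 circRNAs. The number of 19 was 9 without contralateral library 2, 7 without contralateral library 3 and 29 without ipsilateral library 2. Over all 1468 circRNAs the numbers in these fits were 44, 35 and 81, beside 52 with all libraries. DESeq2 called 0, with 5 at an unadjusted p under 0.05 (1.00%, against 1.16% of all circRNAs). With the mouse as a block edgeR called 0, with 21 at that level (4.21%, against 4.5% of all circRNAs). The remaining 8 circles did not reach 2 reads in 3 libraries. The median log2 fold change was -0.02, the same as over all circRNAs tested.

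Counts of circles by library told the same. The contralateral and ipsilateral values did not overlap in 32 circles that were lower contralaterally (6.41%, against 4.84% of all circRNAs) and in 19 that were higher (3.81%, against 3.81%). In all 3 mice 65 were lower (13.03%, against 11.9%) and 54 higher (10.8%, against 10.9%). These shares were near those of all circRNAs.

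The fold changes were estimated more precisely for circles with more reads. Among the 34 circles with a mean of at least 20 reads, the median SE of the log2 fold change was 0.35, and 1 had a fitted difference of at least 2-fold. The median SE was 0.64 for the 241 circles with 5 to 20 reads, of which 17 differed by 2-fold or more, and 0.72 for the 224 with fewer, of which 38 did. In all this made 56 circles (11.2%, against 10.6% of all circRNAs). Differences of that size were not detectable for most circles at this depth and with 3 libraries a group.

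**Figure D4:**
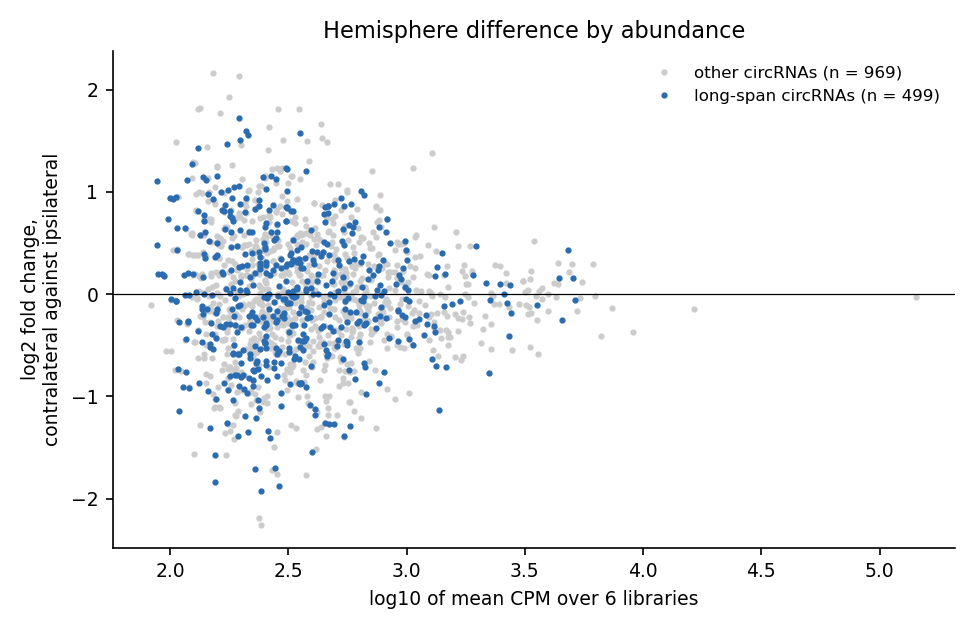
Log2 fold change, contralateral against ipsilateral, of the 499 tested long-span circRNAs (blue) and 969 other circRNAs (grey) against the log10 of their mean CPM. The spread narrows with abundance, and the blue points cover the same area as the grey ones up to about the level of the most abundant long-span circle.

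Among the 6 circles lower contralaterally with the smallest unadjusted p, Elf2 and Nab1 had the most reads. Nab1 is a corepressor of early growth response factors, and its circle of exons 2 to 4 had 23, 14 and 3 reads contralaterally and 29, 32 and 42 ipsilaterally. In CPM contralateral library 1 lay above ipsilateral library 2, so the groups overlapped, and contralateral library 3 was far below the rest. The log2 fold change was -1.13 ± 0.41 (SE), with an adjusted p of 0.999 in edgeR and a 95% interval from -1.93 to -0.34. It was -0.60 without contralateral library 3, -1.93 without contralateral library 1 and -0.35 within the low mt-Rnr1 libraries. Elf2 exons 2 to 4 had 28, 29 and 24 against 38, 67 and 56 reads and did not overlap in CPM, with a log2 fold change of -0.77 ± 0.33 (-0.47 within the low mt-Rnr1 libraries).

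The other 4 had few reads. Zmynd11, a reader of methylated histone, had 4, 3 and 8 reads contralaterally and 14, 20 and 11 ipsilaterally. Srbd1, an RNA-binding domain protein, had 2, 3 and 1 against 7, 14 and 6. Zcchc17, a zinc knuckle protein, had 1, 3 and 1 against 4, 14 and 6. In each of the 3 the groups did not overlap in CPM. Tfdp2, a partner of E2F factors, had 1 read in each contralateral library and 4, 2 and 7 ipsilaterally. The log2 fold changes of these 4 ran from -1.93 to -1.39, each with an adjusted p of 0.999 in edgeR. That of Tfdp2 went from -1.84 to -0.40 within the high mt-Rnr1 libraries.

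The 6 circles higher contralaterally with the smallest p also had few reads. That of Pms1 spanning 33794 bases had 4, 9 and 2 reads contralaterally and 1, 2 and 2 ipsilaterally. Pank2, the mitochondrial pantothenate kinase, had 3, 12 and 13 against 1, 2 and 7, and Galntl6, of the mucin-type glycosylation enzymes, 1, 8 and 8 against 1, 2 and 3. All 3 overlapped in CPM, and Pank2 and Galntl6 were low in contralateral library 1, of the low mt-Rnr1 set. Cobl, an actin nucleator, had 4, 9 and 3 against 1, 2 and 3 reads, and Pan3, a deadenylase subunit, 3, 2 and 8 against 2, 1 and 2. Tmem164, a transmembrane protein gene on the X chromosome, had 2, 1 and 13 against 2, 3 and 1, so that 1 library held most of its reads. Without contralateral library 3 its log2 fold change went from 1.51 to -0.09.

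Relative to the counts of the host gene no circle passed either. The ratio of circle to host counts was tested with limma for 495 circles, of which 0 were called, beside 0 of 1415 (0%). At an unadjusted p under 0.05 there were 21 (7 lower and 14 higher), or 4.24% against 4.03% of all (1.2% lower and 2.83% higher). Without contralateral library 1 there were 38 and without ipsilateral library 2 there were 33. Over all 1415 circRNAs the numbers rose as well, from 57 to 87 and 89. The median log2 change of the ratio was 0.17, against 0.15 over all circRNAs tested. In a fit that includes the mt-Rnr1 level it was 0.07 (all circRNAs 0.07). Within the low mt-Rnr1 libraries it was 0.03 (all circRNAs 0.0039) and within the high ones 0.11 (all circRNAs 0.13).

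Both tests use the same circle counts, so a circle that recurs here has no separate support. Zcchc17, Srbd1 and Zmynd11 were among the 6 lowest in p here too, with log2 ratio changes of -1.66 ± 0.56, -1.72 ± 0.51 and -1.29 ± 0.57 (SE). They were joined by Kif16b, an endosomal kinesin (5, 5 and 2 against 10, 13 and 9 reads), Msra, a methionine sulfoxide reductase (4, 1 and 1 against 3, 9 and 5), and Cers6, a ceramide synthase (3, 1 and 2 against 11, 6 and 5). Kif16b and Cers6 did not overlap in CPM, and Msra did. The ratio change of Msra, -1.24, was -0.02 within the low mt-Rnr1 libraries. On the other side, Dcdc2a, a doublecortin family member (2, 4 and 4 against 1, 2 and 1 reads), Fars2, the mitochondrial phenylalanyl-tRNA synthetase (11, 5 and 5 against 2, 8 and 1), and Slc20a2, a phosphate transporter (5, 7 and 8 against 4, 3 and 5), followed Pank2, Pms1 and Galntl6. Dcdc2a and Slc20a2 did not overlap in CPM. The smallest adjusted p over the 495 in limma was 0.986.

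The gene counts of the hosts differed little. In edgeR's test over 20473 genes 0 of 422 tested hosts passed, beside 26 of all genes (0.127%). Hosts had a median log2 fold change of -0.05 against 0.03 over all genes. The host median was -0.12 without ipsilateral library 1, -0.08 without contralateral library 3 and -0.03 without ipsilateral library 3. Of the hosts, 257 of 422 had a negative value, beside 44.6% of all genes tested. With the mouse as a block 2 hosts were lower contralaterally, beside 143 lower genes in all (0.698%) and 183 in either direction (0.894%). They were Map3k5, a stress-activated kinase, and Tle4, a Groucho corepressor of deep cortical layers.

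Map3k5 stood at 79.6, 74.1 and 85.7 CPM contralaterally and at 109.0, 117.2 and 109.97 ipsilaterally. The groups were clearly apart. The log2 fold change was -0.49 ± 0.11 (SE), with an adjusted p of 0.278 in edgeR without and 0.0155 with the block. Tle4 stood at 68.4, 63.8 and 64.0 against 93.3, 81.1 and 86.2 CPM, also without overlap. Its log2 fold change was -0.41 ± 0.11, with adjusted p values of 0.525 and 0.0393 in the same edgeR fits. The circle of Map3k5 (exons 4 to 10) had 3, 2 and 2 against 7, 9 and 5 reads, and its ratio to the host changed by -0.60 ± 0.56 on the log2 scale. The circles of Tle4 (exons 5 to 8 and 5 to 6) had 2, 5 and 18 against 2, 17 and 5, and 3, 1 and 3 against 7, 6 and 1 reads, each with overlap.

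Where a gene gave 2 long-span circles, these mostly shared an end. Of 58 such hosts, 31 had circles with the same first exon, 12 with the same last exon, 4 with overlapping and 11 with separate circles. The more abundant circle led in 6 of 6 libraries in 21 hosts, and it was the one of smaller span in 28. Among the 4 hosts with the most reads, all of them with a shared first exon, it took 79.0% of the reads in Dtnb, 93.6% in Rnf169, 73.6% in Elf2 and 85.6% in Sergef. In Dtnb and Elf2 the leading circle has 1 exon less, and in Sergef, a gene of a guanine nucleotide exchange factor family, 1 exon more, than the minor one.

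The share of the leading circle differed without overlap between hemispheres in 6 of the 58 hosts. It was lower contralaterally in Elf2, Dnajc1, Pms1, Faxc and Thrb, and higher in Dtnb. Over all 155 hosts with 2 exonic circRNAs 5.81% were lower and 3.23% higher without overlap. Dnajc1, Faxc and Thrb were named after their values were seen. The shares of Elf2 and Pms1 include circles already picked above for a small p, so they are not separate evidence. In Dnajc1, a chaperone cofactor of the endoplasmic reticulum, exons 4 to 8 took 62.5%, 61.3% and 69.0% contralaterally and 82.1%, 86.0% and 85.7% ipsilaterally, of 36 reads per library on average. The means were 64.3% ± 4.17 and 84.6% ± 2.14 (SD, n = 3), the exact permutation test of 3 against 3 cannot go below 0.1, and no test was made of shares chosen for their separation. In Pms1 the values were 77.8%, 76.9% and 88.2% against 93.3%, 96.2% and 92.3%, on 28 reads per library. In Dtnb they were 81.6%, 83.5% and 87.6% against 79.7%, 80.1% and 55.1%, and ipsilateral library 3 stood apart.

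**Figure D5:**
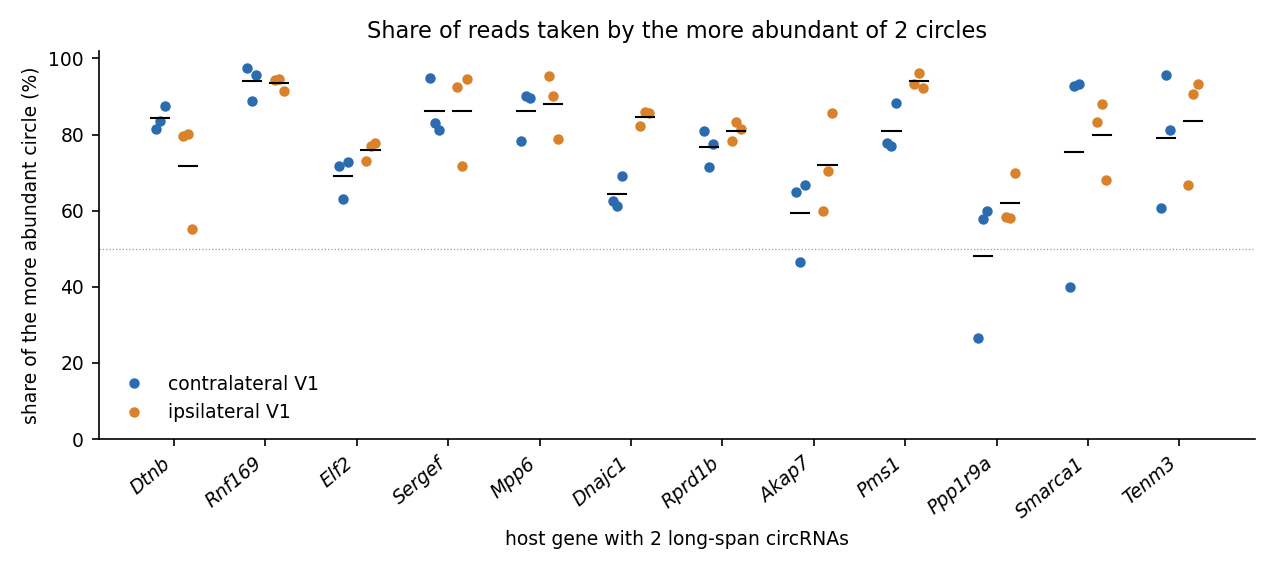
Share of reads taken by the more abundant circle in the 12 hosts with 2 long-span circRNAs and the most reads, per contralateral (blue) and ipsilateral (orange) library, with black lines at the mean and a dotted line at 50%. The groups are apart in Dtnb, Elf2, Dnajc1 and Pms1 and overlap in the other 8.

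In 2 hosts with 4 circles each, starts and ends occurred in every combination. Cadps, a priming factor of dense-core vesicles, gave 4 circles from 2 starts and 2 ends (chr14:12418005-12457829, chr14:12418005-12454319, chr14:12439871-12457829 and chr14:12439871-12454319), with means of 7.17, 5.00, 4.67 and 2.50 reads per library. Eri3, an exoribonuclease gene, likewise gave every combination of 2 starts and 2 ends, with means of 6.00 to 13.5 reads. Both hosts were named after their structures were seen.

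By function, 207 of the 507 circles fell in 11 lists of genes and 300 in none. Chromatin and transcription was the longest, with 44 circles from 36 hosts and a median of 273.2 CPM. Besides Satb1, Nsd2, Phf21a and Ncoa2, its members reached down to 99.7 CPM. The median log2 fold change was -0.05, 0 of 44 had an unadjusted p under 0.05, and of the list's 196 tested genes 0 passed the gene test, with 1 lower under the block.

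Kinases and phosphatases gave 30 circles, among them those of Stk3, a Hippo pathway kinase (984.5 CPM), Mark3, which phosphorylates microtubule-associated proteins (838.7 CPM), and Ppp1r13b, a regulator of p53 (791.8 CPM). Small GTPase regulators gave 24, led by Dock3 (1133 CPM), an exchange factor for Rac, Fgd4 (989.3 CPM), one for Cdc42, Rapgef6 (915.5 CPM), one for Rap, and Arhgap5 (763.4 CPM), a GTPase-activating protein. The median log2 fold changes of these circles were -0.22 and -0.44, beside -0.02 over all circRNAs tested. In each list 1 circle had an unadjusted p under 0.05. Their genes numbered 163 and 92 tested, of which 0 passed and, with the block, 3 and 1 were lower.

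Ubiquitin ligases and proteases gave 23 circles with the highest level in the lists after the cytoskeleton: Rnf169 first, then Herc4 (1559 CPM), Mycbp2 (1012 CPM), an axonal ligase, and Fbxl17 (943.1 CPM). Cytoskeleton and motors gave 22, with a median of 395.2 CPM, led by both circles of Dtnb, Lrch3 and Akap7 (1022 CPM), an anchor of protein kinase A. The median log2 fold changes were 0.15 and -0.11, with 0 and 1 circles at an unadjusted p under 0.05. None of their 138 and 145 tested genes passed in either fit. RNA binding and processing gave 15 circles, led by Stau2 (2173 CPM), a dendritic RNA transport factor, Srpk2 (658.6 CPM), a kinase of splicing factors, and Eif4e3 (640.3 CPM), a cap-binding protein. For Srpk2 the 4, 10 and 12 contralateral reads lay below the 14, 18 and 14 ipsilateral ones in CPM, with a log2 fold change of -0.67 ± 0.54. Of 111 tested genes of this list 0 passed, with 1 lower under the block.

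Circles of synaptic genes were mostly of moderate level and of low index, but a low index was not theirs alone. The median over all long-span circles was 0.0217. Lower medians were also found for ion channels (0.0108), kinases (0.0123), RNA binding (0.0145), ubiquitin ligases (0.0168) and small GTPase regulators (0.0192). Those of chromatin (0.0221) and cytoskeleton (0.0377) were higher. Synaptic adhesion and scaffolds gave 20 circles with the widest median span of the lists (42086.5 bases, apart from the single one of Quaking), led by Sorbs2 (1085 CPM), an actin adaptor, Tenm3 (999.9 CPM), a teneurin, Dscam (645.3 CPM) and Pcdh7 (448.9 CPM), both adhesion molecules. Presynaptic release and active zone gave 13 with a median index of 0.00819. There Sv2b, a synaptic vesicle protein, led with 2258, 2361 and 2223 CPM contralaterally and 1490.0, 1654 and 1780 ipsilaterally. The groups did not overlap. Its log2 fold change was 0.47 ± 0.34 (SE), with an adjusted p of 0.999 in edgeR. Cadps (390.2 CPM) and 2 circles of Stxbp5l, a tomosyn (318.1 and 303.4 CPM), followed. Of 101 adhesion genes 1 was lower in the gene test, and of 42 presynaptic genes 0 passed. With the block 1 gene of each list was lower and 1 higher.

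Ion channels and transporters gave 10 circles, led by Cacna2d1 (771.6 CPM), a calcium channel subunit, Kcnh1 (601.4 CPM) and Kcnma1 (526.5 CPM), potassium channels, and Slc2a13 (446.8 CPM), a myo-inositol transporter. Glutamate and GABA receptors, with their anchors, gave 6. The circle of Gabra4, a GABA receptor subunit, had 5, 3 and 6 reads contralaterally and 7, 27 and 8 ipsilaterally, lower without overlap in CPM. Its log2 fold change was -1.27 ± 0.63 (SE), with an unadjusted p of 0.0451 and an adjusted p of 0.999 in edgeR. That of Gria2, an AMPA receptor subunit, had 1, 2 and 5 against 5, 7 and 5 reads, also lower without overlap in CPM, though both sides of mouse 3 had 5 reads. The log2 fold change of the Gria2 circle was -0.90, with an unadjusted p of 0.234 and an adjusted p of 0.999 in edgeR. Grip1, which binds AMPA receptors (371.9 CPM), and Grik1, a kainate receptor subunit (344.9 CPM), overlapped. Of 62 and 36 tested genes of these lists 0 passed, and 1 receptor gene was lower under the block.

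Factors known to act in back-splicing or in the export and decay of circRNAs were also examined as genes. Of 40 tested, 0 passed with or without the block, and their median log2 fold change was -0.04. One of them, Quaking (Qk), gave a long-span circle itself, of exons 2 to 4 over 44088 bases. It had 7, 11 and 7 reads contralaterally and 4, 19 and 8 ipsilaterally, with overlap. Its index of 0.00441 was low, beside the median of 0.0217 over all long-span circles.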

How the data were processed

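The deposited circRNA table holds raw counts of back-splice reads with coordinates, strand, host and type per the file headers, and the deposited gene table raw read counts per gene. The authors' deposited normalized circRNA signal, 1 file per library, equalled quantile-normalized counts in 1488 of 1488 rows (to 3 decimals) and served as an alternative. The kit was stranded and for total RNA, per the labels' protocols. Tools named in the submitters' processing notes are featureCounts, HISAT2, limma and DESeq2, with build GRCm38. How circRNAs were called and filtered, whether gene counting used strand, and what the circRNA type column means (506 circles of type 1, 1 of type 0) is not given in the sources used here, so host counts of overlapping genes are uncertain.

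CircRNAs with at least 2 reads in 3 libraries (1468) and genes passing filterByExpr (minimum count 10, total 15, 20473 genes) were tested with edgeR 4.0.16 (quasi-likelihood, TMM, Benjamini-Hochberg), and log2((circle + 0.5)/(host + 0.5)) with limma 3.58.1 (trend), in R 4.3.3. DESeq2 1.42.0 was an alternative. Standard errors were taken from the F statistic. Where the host entry held several genes, a gene was chosen by strand and overlap. Exons came from GENCODE M21, where 2 circles had no host. The scripts were tested on simulated data. Single values were compared by exact permutation. Columns of other series numbered 0.

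Both hemispheres of a number come from the same mouse per the labels, so the design is paired. For mice 1 to 3 the correlation of both sides' departures from their group mean was 0.58, 0.318 and 0.103 over circRNAs (148 with a mean of at least 20 reads). Between sides of different mice it ran from -0.529 to 0.418. The highest, contralateral 3 with ipsilateral 2, exceeded the values of mice 2 and 3 themselves, so only mouse 1 stood out. The fit without the block was chosen first, and the blocked one stands beside it where it changes a call.

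Circles were named by rule: the 12 most abundant, 6 per direction with the smallest p in each test, the 5 widest, 4 hosts with the most reads in 2 circles, the 6 highest and 6 lowest indices, 3 on each side of the span threshold, hosts that pass, and up to 4 per list. Predicted genes were counted only, and 1 gene chosen by this rule is not reported here. The members and lists were chosen with earlier results of these data known. Sequence of the flanking introns was not analysed here.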

Additional observations from a re-analysis of the deposited data

How the results depend on the processing

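Calls among the long-span circles stayed at 0 under every alternative run for the circRNA test (16) and the ratio test (12), which included DESeq2, other filters, scaling to gene reads, the deposited normalized values, the mt-Rnr1 sets and leaving out each library. With the mouse as a replicate block the number of hosts called went from 0 to 2, and the block left the calls among circles at 0 in both tests. The median log2 fold change of -0.02 moved to 0.0952 when scaled to gene reads (all circRNAs 0.0959). It moved to 0.0598 within the high mt-Rnr1 libraries (all circRNAs 0.121), and lay between -0.03 and 0.03 with a library left out. The median ratio change of 0.17 moved to 0.0345 within the low mt-Rnr1 libraries (all circRNAs 0.0039) and lay between 0.08 and 0.27 with a library left out. The difference in read share of -0.0795 percentage points turned to 0.0262 with exonic reads as the denominator, and lay between -0.282 and 0.191 with a library left out. The class difference in index between hemispheres, 0.06, lay between 0.02 and 0.10 with a library left out, an alternative chosen after seeing the data. Log2 changes turned in sign within the low mt-Rnr1 libraries for Pank2 (-0.10) and Galntl6 (-0.67, and -0.18 for its ratio), within the high ones for the ratio of Fars2 (-0.0565), and without contralateral library 3 for Tmem164 (-0.0876, up to 2.04 with another library left out). The cause was not tested. Most circles have few reads, which limits what can be seen.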
